A study of Mus musculus with 161 samples.

Results

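Nos2, Arg1 and 5 genes around them, Arg2, Ass1, Slc7a2, Gch1 and Odc1, act on the amino acid arginine or on steps linked to its use. Their RNA and the open chromatin near their starts were followed in mouse bone marrow-derived macrophages. The 7 genes were taken by name from the 8307 genes of the bulk RNA-seq matrix, which holds 145 libraries of 48 conditions. In addition, 82 of 150203 ATAC-seq sites, stretches of open chromatin, lay within 50 kb of their annotated starts, and 7 single-cell libraries with 22881 cell barcodes served to ask whether Nos2 and Arg1 RNA occur in the same cell. All 7 genes were measured, and none was removed by a filter.

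Arginine is a substrate for which 2 enzymes of macrophages compete. Inducible nitric oxide synthase, encoded by Nos2, turns it into nitric oxide and citrulline and is a classical product of cells exposed to bacterial components and IFN-γ. Arginase 1, encoded by Arg1, turns it into urea and ornithine and is a classical product of mouse macrophages exposed to IL-4. The remaining genes act on arginine or on steps linked to its use. Slc7a2 encodes a cationic amino acid transporter that takes arginine up, and Ass1 encodes argininosuccinate synthase, which starts the rebuilding of arginine from citrulline. Gch1 encodes GTP cyclohydrolase, the first enzyme in the making of tetrahydrobiopterin, a cofactor of nitric oxide synthase. Arg2 encodes the mitochondrial arginase, and Odc1 encodes ornithine decarboxylase, which opens the route from ornithine to polyamines.

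The cells came from C57BL/6J mice of 6 to 10 weeks and were grown to day 7 in medium with 20 ng/mL MCSF, which the unstimulated M0 cells and all other cells shared. M1 cells were then given LPS from bacterial cell walls at 100 ng/mL together with IFN-γ at 25 ng/mL, whereas IL-4 at 25 ng/mL was given to M2 cells. After 24 h of either stimulus, cells were washed and given base medium (M1 → M0, M2 → M0), the opposing stimulus (M1 → M2, M2 → M1) or the same stimulus again (here called M1 kept and M2 kept, with M0 kept as their control), and for these cells the hours below count from the wash. Bulk RNA-seq had 3 libraries in 45 conditions, 2 in M0 kept at 24 h and 4 in M0 kept at 72 h and M2 → M1 at 4 h, ATAC-seq had 3 libraries each of M0 at 0 h, M1 at 24 h and M1 → M0 at 72 h, and single-cell RNA-seq had 1 library of each of 7 conditions. Libraries of a condition are called biological replicates in the labels, but their origin from different animals or dishes is not stated, so a p value here measures the spread between libraries, which may be technical. For bulk RNA this spread was pooled for each gene over all 145 libraries and is not that of the compared libraries alone. The libraries were taken as independent, although same-numbered ones can be correlated, as given below.

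RNA levels are FPKM, a read count scaled to gene length and library size, given as mean ± SD over the libraries of a condition, and single values follow in the order of replicates 1, 2 and 3. Differences are on the log2(FPKM + 1) scale with their SE, which understates the change of a gene near 0, and a difference was called when limma's Benjamini-Hochberg adjusted p over all 8307 genes was below 0.05. A block value comes from a limma fit with the replicate number as a term, on the libraries of the compared conditions alone. Where it changes a call, the term and the smaller fit cannot be told apart. Markers of macrophages, 7 genes, summed to between 2891 and 11595 FPKM in every bulk library. Markers of neutrophils and their precursors, 9 genes, summed to 975.5 to 2716 FPKM in M0 at 0 h, 1437 to 4215 and 954.3 to 5437 in M1 at 1 and 2 h, 967.4 to 3733 and 779.8 to 2697 in M2 at 1 and 2 h, 21.8 to 313.7 in M0 at 24 h, 20.7 to 40.0 in M1 at 24 h and 8.94 to 18.9 in M0 kept at 72 h, and the 1 measured B cell marker, Ighm, was at 72.1 to 95.3 FPKM in M0 at 0 h and 0.466 to 1.16 in M1 at 24 h. Their part in the differences below was not tested. In bulk RNA, fewer cells that express a gene and less RNA in each cell cannot be told apart. Libraries of replicate 1 stood apart from the others: Ass1 was highest in replicate 1 in 37 of 48 conditions, Slc7a2 in 36, Gch1 in 29 and Nos2 in 26, and Arg1 was lowest there in 25.

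Sequences in open sites near Nos2 and Arg1 are shown first, because the sites of Nos2 had the largest median chromatin difference in M1 cells among the 7 genes, 2.84 on the log2 scale. Nos2 lies on the plus strand of chr11:78920787-78960254 and Arg1 on the minus strand of chr10:24915221-24927484 (GRCm38.p6, GENCODE vM21), and no other protein-coding gene starts within 50 kb of either. Each line below is 60 bases of the plus strand, and capitals mark the letters that match a motif searched on both strands: TTC and GAA with 3 bases of any kind between them (GAS, an element of IFN-γ-responsive genes), TTC and GAA with 4 bases of any kind between them (the spacing preferred by STAT6), GGG and CC with 5 such bases between them (κB, the element of NF-κB) or GAAA and GAAA with 2 such bases between them (ISRE, the element of interferon-stimulated genes). Overlapping matches run together. The first 5 lie in 3 sites upstream of Nos2 that were more open in M1 at 24 h, and the last in a site upstream of Arg1.
Nos2 44.6 kb upstream, κB, chr11:78876225-78876284: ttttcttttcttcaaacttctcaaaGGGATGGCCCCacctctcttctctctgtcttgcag
Nos2 33.5 kb upstream, κB, chr11:78887191-78887250: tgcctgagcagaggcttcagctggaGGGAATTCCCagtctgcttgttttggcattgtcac
Nos2 33.5 kb upstream, ISRE, chr11:78887134-78887193: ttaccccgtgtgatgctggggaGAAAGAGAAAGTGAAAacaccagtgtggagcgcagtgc
Nos2 31.5 kb upstream, GAS, chr11:78889370-78889429: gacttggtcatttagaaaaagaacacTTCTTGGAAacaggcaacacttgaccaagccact
Nos2 31.5 kb upstream, κB, chr11:78889266-78889325: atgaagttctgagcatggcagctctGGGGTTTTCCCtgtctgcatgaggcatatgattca
Arg1 2.9 kb upstream, STAT6, chr10:24930280-24930339: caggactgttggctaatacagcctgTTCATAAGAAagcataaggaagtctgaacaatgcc

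In windows of 300 bases at the site centres, κB letters were found in 8 of the 14 tested Nos2 sites and 2 of the 9 tested Arg1 sites, against 34.8% of the 137353 windows read from the reference for all tested sites. GAS letters were found in 2 Nos2 and 0 Arg1 sites, against 9.02% of all windows. STAT6 letters were found in 2 and 2, against 7.95%, and ISRE letters in 2 and 0, against 5.5%. A match of letters is a description of the sequence and not a site of binding. Promoters were matched in RefSeq for 3 of the 7 genes, Ass1, Gch1 and Odc1.

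The first question was how the genes respond to each stimulus. Nos2 rose by more than any of the other 6 genes in M1 cells and passed the test at no hour in M2 cells, whereas Arg1 rose by more than the other genes in M2 cells and, in M1 cells, was called at 2, 12 and 24 h. Slc7a2 rose under both stimuli. Ass1 rose in M1 cells and passed the test at no hour in M2 cells, and Arg2, Gch1 and Odc1 rose within hours in M1 cells. In M2 cells Arg2 and Gch1 were called at 2 h alone and Odc1 from 2 to 12 h.

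In M0 cells at 0 h, Nos2 was at 0.170, 0.140 and 0.0316 FPKM, and at 1 h of the M1 stimulus at a mean of 0.269. At 2 h of the M1 stimulus it was at 144.5, 19.1 and 35.8 FPKM, and at 6 h, its highest mean over the 48 conditions, at 2477, 2782 and 2860 FPKM. All 3 libraries at 2 h stood far above the M0 range, and replicate 1 was well ahead of the others at that hour. The difference from M0 at 0 h was 5.42 ± 0.36 at 2 h (limma adjusted p = 4.1e-25) and 11.25 ± 0.36 at 6 h (adjusted p = 3.6e-50). The level stayed at 2649 ± 217 at 12 h (SD, n = 3) and was 624 ± 112 at 24 h. Over the M2 course the means of Nos2 ran from 0.138 to 0.377 FPKM, and the limma test was passed at 0 of 6 hours, also at an unadjusted p under 0.05.

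Arg1 started from 4.06, 6.73 and 9.24 FPKM in M0 at 0 h. It was at 204.4, 94.3 and 147.5 FPKM after 2 h of IL-4, a difference of 4.28 ± 0.54 (limma adjusted p = 2.3e-10), and reached 2639 ± 357 at 24 h. In M1 cells the course was of another shape. At 2 h Arg1 was at 4.62, 53.0 and 28.0 FPKM, so that replicate 1 stayed at the M0 level while the other libraries rose above it, and the call at that hour (1.49 ± 0.54, adjusted p = 0.018) rested on those libraries. This call was lost with the replicate block (limma adjusted p = 0.076). At 4 h it was at 6.25 ± 3.25 and at 6 h at 11.3 ± 9.58 FPKM, and neither hour passed the test. It then stood at 75.4, 117.7 and 149.9 FPKM at 12 h (3.91 ± 0.54, adjusted p = 3.3e-10) and at 345.0, 301.5 and 523.4 FPKM at 24 h (5.69 ± 0.54, adjusted p = 6.1e-17). Every library of 12 and 24 h was above every M0 library.

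**Figure D1:**
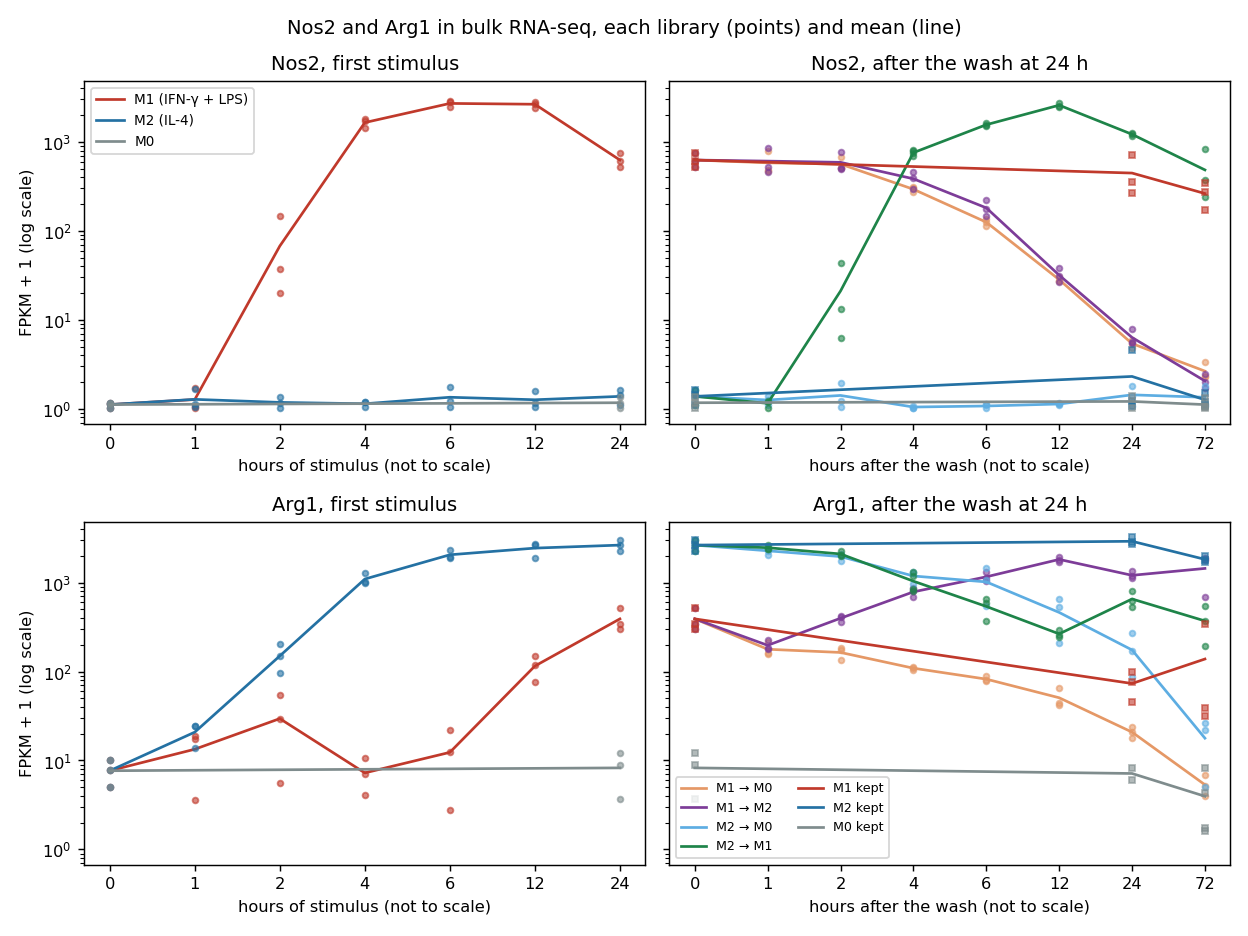
Bulk RNA levels of Nos2 (top) and Arg1 (bottom) as FPKM + 1 on a log axis, against hours of the first stimulus (left) or hours after the wash that ended 24 h of it (right); points are libraries, squares mark cells kept in their first medium, lines join condition means, and hours are not drawn to scale. Nos2 climbed to 2706 FPKM at 6 h of the M1 stimulus and fell to 1.65 FPKM at 72 h of M1 → M0, while Arg1 climbed to 2639 FPKM at 24 h of IL-4 and, later and less, to 390 FPKM in M1 cells.

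Slc7a2 was at 1.99 ± 0.271 FPKM in M0 at 0 h. In M1 cells it was at 576, 440.5 and 445.2 FPKM at 6 h (7.34 ± 0.36, limma adjusted p = 9.8e-36) and back to 35.6, 23.3 and 31.1 at 24 h. In M2 cells it was at 179.5, 185.5 and 183.2 FPKM at 6 h (5.94 ± 0.36, adjusted p = 3e-27) and still at 124.4, 110.8 and 121.3 at 24 h. The M1 libraries were therefore the higher ones at 6 h and the lower ones at 24 h, with no overlap at either hour.

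Ass1, the enzyme of citrulline reuse, lagged behind Nos2 in M1 cells. It passed the test first at 4 h, at 11.1 ± 2.40 FPKM (2.21 ± 0.32, limma adjusted p = 1.5e-09), and peaked at 12 h with 75.2, 85.0 and 87.8 FPKM, against 1.71 ± 0.942 in M0 at 0 h. Its means in the M2 course were 0.952 to 2.25 FPKM and were called at 0 of 6 hours, also at an unadjusted p under 0.05. Gch1, the enzyme of cofactor synthesis, went from 4.01 ± 0.161 FPKM in M0 at 0 h to 40.2 ± 1.99 at 2 h and 52.3 ± 2.11 at 6 h of the M1 stimulus (3.41 ± 0.23, adjusted p = 1.8e-25), and in M2 cells it passed only at 2 h, at 8.33 ± 1.93 FPKM (0.88 ± 0.23, adjusted p = 0.0024).

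Arg2 and Odc1, an arginase and the enzyme next to the arginases' product, were transient. Arg2 was at 10.3, 38.0 and 24.4 FPKM at 2 h of the M1 stimulus, against 0.467 ± 0.187 in M0 at 0 h (3.94 ± 0.24, limma adjusted p = 1.5e-27), and at 0.304 ± 0.0524 FPKM at 24 h. Odc1 was at 82.2, 160.1 and 159.5 FPKM at 2 h, against 21.3 ± 6.70 (2.59 ± 0.23, adjusted p = 2e-18), and at 21.9 ± 3.62 at 24 h. For both genes replicate 1 was the lowest library at 2 h, an hour at which the neutrophil marker sums of the 3 M1 libraries also lay far apart, as given above. Under IL-4 the peak of Arg2 was 2.22 ± 0.648 FPKM at 2 h (1.12 ± 0.24, adjusted p = 0.00014) and that of Odc1 35.1 ± 9.10 FPKM at 2 h (0.72 ± 0.23, adjusted p = 0.012).

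The 7 genes at 6 hours give 42 values per course. In M1 cells 32 were higher and 0 lower than in M0 at 0 h, where 50.5% of all gene and hour pairs were called, 29.2% as higher. In M2 cells 16 were higher and 0 lower, where 29.8% were called, 16.8% as higher. Both courses were set against the same 3 M0 libraries. Arg2, Gch1 and Odc1 passed the test at 1 h in M1 cells, but replicate 1 alone was high for Arg2, at 7.96 against 1.27 and 1.17 FPKM, and for Gch1, at 23.4 against 3.97 and 5.0. With the replicate block the 1 h calls of Arg2, Gch1 and Odc1 were lost (limma adjusted p = 0.53, 0.57 and 0.52).

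**Figure D2:**
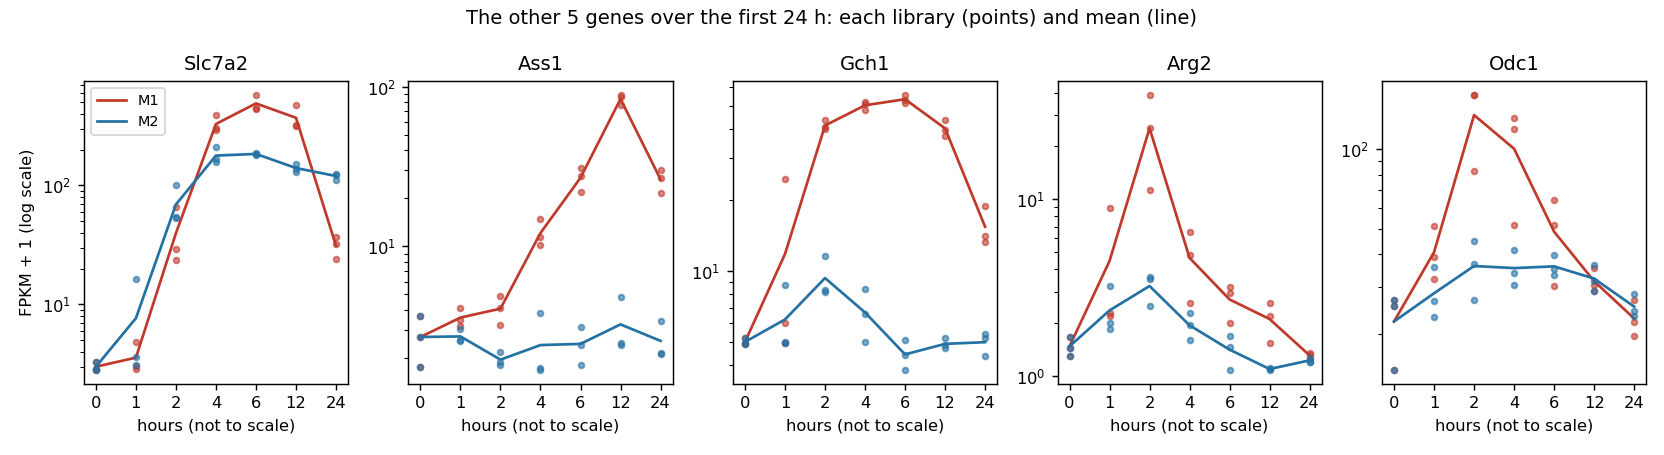
Bulk RNA levels of Slc7a2, Ass1, Gch1, Arg2 and Odc1 as FPKM + 1 on log axes that differ between panels, against hours of the M1 or M2 stimulus (not drawn to scale); points are libraries, lines join means, and 0 h is the shared M0 control. Arg2 and Odc1 peaked at 2 h, Slc7a2 and Gch1 at 6 h and Ass1 at 12 h of the M1 stimulus, and Slc7a2 was the 1 gene of the 5 called against M0 at 0 h at 24 h of IL-4.

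Against M0 cells of the same age, at 24 h, the M1 cells held 6 of the 7 genes at a higher level and none at a lower level, where 60.5% of all genes were called and 35.4% were higher. The median difference of the 7 genes was 3.43, beside 0.095 over all genes. Nos2 differed by 9.06 ± 0.36 (limma adjusted p = 1.4e-42, 533-fold on the FPKM + 1 scale), Arg1 by 5.69 ± 0.54 (adjusted p = 5.9e-17, 51.5-fold), Ass1 by 3.98 ± 0.32 and Slc7a2 by 3.43 ± 0.36. Gch1 differed by 1.52 ± 0.23 (adjusted p = 1.4e-08). The 0.53 ± 0.23 of Odc1 (adjusted p = 0.036) was lost without replicate 1 (0.35, adjusted p = 0.12) or replicate 2 (0.48, adjusted p = 0.2), and its libraries overlapped. Arg2 was at 0.304 FPKM in M1 and 0.224 FPKM in M0 cells (difference 0.09, adjusted p = 0.76).

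In M2 cells at 24 h, 3 of the 7 genes were higher than in M0 at 24 h and none lower, where 33.6% of all genes were called and 18.5% were higher. The median was 0.60, beside 0.025 over all genes. Arg1 differed by 8.47 ± 0.54 (limma adjusted p = 2.6e-26, 356-fold) and Slc7a2 by 5.40 ± 0.36 (adjusted p = 9.6e-25, 42.2-fold). The 0.68 ± 0.23 of Odc1 (adjusted p = 0.013) was lost without replicate 1 (0.46, adjusted p = 0.066) or replicate 2 (0.78, adjusted p = 0.069). Nos2 differed by 0.23 (adjusted p = 0.68). Ass1 was at 1.56 against 0.656 FPKM (0.60, adjusted p = 0.14), which passed with the replicate number as a block (adjusted p = 0.021).

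Set directly against each other at 24 h, M1 cells held more Nos2 (8.83 ± 0.36, limma adjusted p = 8.2e-42), Ass1 (3.38 ± 0.32) and Gch1 (1.61 ± 0.23) than M2 cells, and less Arg1 (-2.79 ± 0.54, adjusted p = 3.2e-06) and Slc7a2 (-1.97 ± 0.36, adjusted p = 1.1e-06). These 3 higher and 2 lower genes stand beside 66.4% of all genes called, 36.4% higher and 30.0% lower. Arg1, the enzyme taken as a mark of M2 cells, was thus 51.5-fold above M0 in M1 cells and 0.145 of its M2 level on the FPKM + 1 scale.

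Other genes of arginine, polyamine, creatine and biopterin metabolism were followed as a list of 41, of which 27 were measured. In M1 against M0 cells at 24 h 5 rose and 13 fell, with a median of -0.38 beside 0.095 over all genes, of which 35.4% were higher and 25.2% lower. Ddah2, which breaks down inhibitors of nitric oxide synthase, fell from 10.4 to 1.82 FPKM (-2.04, limma adjusted p = 3.1e-10). Slc3a2, the heavy chain of amino acid transporters, rose from 65.6 to 235 FPKM (1.84), Smox, spermine oxidase, rose from 23.5 to 78.3 FPKM (1.67), and Qdpr, which regenerates tetrahydrobiopterin, fell from 55.5 to 19.1 FPKM (-1.51).

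In M2 against M0 cells 10 of the 27 rose and 5 fell, with a median of 0.19 beside 0.025 over all genes, of which 18.5% were higher and 15.1% lower. Gatm, the first enzyme of creatine synthesis and a user of arginine, rose from 36.5 to 127 FPKM (1.76, limma adjusted p = 1.4e-06). Srm, spermidine synthase, rose from 12.0 to 32.9 FPKM (1.43), and Eif5a, the translation factor that carries a modification made from spermidine, rose from 258 to 653 FPKM (1.36). Slc7a7, an exporter of cationic amino acids, fell from 7.24 to 2.22 FPKM (-1.36). Between M1 and M2 cells 7 were higher in M1 and 15 higher in M2, beside 36.4% and 30.0% of all genes, and Gatm (-2.92), Smox (2.70), Srm (-2.64) and Slc7a7 (2.30) differed most among those called.

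The second question was how the levels fell after the stimulus was removed. After the M1 stimulus Nos2 was the gene that fell furthest. In M1 → M0 it was at 798.4, 477.1 and 466.9 FPKM at 1 h. It had 308.3, 269 and 299.7 FPKM at 4 h and 125.5, 113.5 and 133.3 at 6 h, against 624 ± 112 in M1 cells at 24 h. The first hour called was 4 h (-1.08 ± 0.36, limma adjusted p = 0.023), and the difference was -2.31 ± 0.36 at 6 h (adjusted p = 1.3e-07) and -6.85 ± 0.36 at 24 h, where the mean was 4.40 ± 0.579 FPKM.

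Arg1 in the same cells was at 177 ± 32.2 FPKM (1 h), 108 ± 3.94 (4 h), 19.8 ± 2.79 (24 h) and 4.34 ± 1.43 (72 h), against 390 in M1 cells at 24 h, and was also called from 4 h (-1.80 ± 0.54, limma adjusted p = 0.009). At an unadjusted p under 0.05 Arg1 passed at 7 of 7 hours and Nos2 at 5. With the replicate block Arg1 was called at 2 h too (-1.23, limma adjusted p = 0.28 without and 0.036 with the block). Gch1 was called from 4 h (-0.72 ± 0.23, adjusted p = 0.017), Ass1 from 6 h (-0.87 ± 0.32, adjusted p = 0.026) and Slc7a2 from 12 h (-1.96 ± 0.36, adjusted p = 3.2e-06). The call of Ass1 at 6 h was lost without replicate 2 (-0.98, adjusted p = 0.1) or replicate 3 (-0.64, adjusted p = 0.33), and with the replicate block Slc7a2 was called at 6 h too (-0.88, adjusted p = 0.053 without and 0.0012 with the block). Arg2 and Odc1, which had come back by 24 h, were called at 0 of 7 hours by limma, also at an unadjusted p under 0.05. Of the 49 gene and hour pairs 22 were lower and 0 higher than in M1 cells at 24 h, where 28.0% of all such pairs were called and 14.9% were lower. At 6 h 4 genes were lower, where 30.9% of all genes were called and 17.1% were lower.

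After IL-4 Arg1 declined over hours, and without the replicate block it was first called at 12 h. It was at 2277 ± 228 FPKM at 1 h of M2 → M0. Against M2 cells at 24 h it differed by -0.42 at 2 h (limma adjusted p = 0.8, and 0.037 with the block). At 4 h the difference was -1.16 (adjusted p = 0.18, and 0.00027 with the block). At 6 h Arg1 stood at 546.7, 1450 and 1055 FPKM, which did not pass the test without the block (-1.48 ± 0.54, limma adjusted p = 0.057). At 12 h the mean was 461 ± 226 FPKM (-2.66 ± 0.54, adjusted p = 0.00011), at 24 h 85.0, 167.9 and 268.3 FPKM and at 72 h 3.99, 25.7 and 20.8 FPKM. Replicate 1 was the lowest library at 6, 12, 24 and 72 h. Slc7a2 was called from 4 h (-1.23 ± 0.36, adjusted p = 0.016) and fell from 119 ± 7.14 to 34.2 ± 8.72 FPKM at 6 h (-1.79 ± 0.36, adjusted p = 0.00014, lost without replicate 3, adjusted p = 0.06) and to 5.34 ± 0.596 at 72 h. Odc1 was lower at 24 h (-0.83 ± 0.23, adjusted p = 0.0051) and 72 h (-0.78 ± 0.23). Of 49 pairs 10 were lower and 0 higher, where 13.0% of all pairs were called and 6.80% were lower, and without replicate 3 the count was 6. At 6 h 1 gene was lower, where 11.5% of all genes were called and 6.12% were lower.

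Cells kept in their stimulus show what the removal is to be read against. At 72 h Nos2 was at 340.4, 274.2 and 170.4 FPKM in M1 kept cells, at 2.33, 1.35 and 1.26 in M1 → M0 cells and at 0.0832, 0.0062, 0.317 and 0.0461 in the 4 libraries of M0 kept cells. The 3 conditions did not overlap. M1 → M0 was below M1 kept by far (-6.6 ± 0.36, limma adjusted p = 8.2e-31) and above M0 kept by 1.24 ± 0.34 (adjusted p = 0.0048), and this last call was lost without replicate 3 (1.42, adjusted p = 0.059). M1 kept cells at 72 h held 5 of the 7 genes above M0 kept, where 52.4% of all genes were called and 30.0% were higher: Nos2 (7.83 ± 0.34), Arg1 (4.58 ± 0.50), Ass1 (2.85 ± 0.30), Slc7a2 (2.36 ± 0.34) and Gch1 (0.96 ± 0.22).

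Arg1 in M1 kept cells at 72 h was at 38.2, 30.5 and 343.2 FPKM, so that the mean of 137 was set by replicate 3. In M1 → M0 cells at 72 h it was at 3.00, 5.84 and 4.17 FPKM, below every M1 kept library (-3.85 ± 0.54, limma adjusted p = 1.9e-09) and overlapping the 0.758, 0.591, 7.16 and 3.33 FPKM of M0 kept (0.72 ± 0.50, adjusted p = 0.36). Gch1 was at 7.53, 6.73 and 6.62 FPKM in M1 → M0 and 4.75, 4.78, 3.68 and 3.77 in M0 kept (0.61 ± 0.22, adjusted p = 0.039), a call lost without replicate 2 (0.68, adjusted p = 0.14), replicate 3 (0.59, adjusted p = 0.32) or replicate 4 (0.56, adjusted p = 0.085). Markers of fibroblasts, 2 genes, summed to 18.2 to 128.0 FPKM in M0 kept and 0.296 to 0.941 in M1 → M0 at 72 h, and their part was not tested. The 2 calls of M1 → M0 against M0 kept, Nos2 and Gch1, stand beside 17.9% of all genes called and 10.7% higher, and the 4 lower genes of M1 → M0 against M1 kept, Nos2, Arg1, Ass1 and Slc7a2, beside 42.1% called and 22.8% lower.

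M2 kept cells at 72 h held Arg1 at 1990, 1683 and 1799 FPKM and Slc7a2 at 224 ± 37.0 FPKM, and these were the 2 genes called against M0 kept (9.17 ± 0.50 and 6.17 ± 0.34, limma adjusted p = 3.4e-31 for both), where 35.3% of all genes were called and 20.4% were higher. The same pair was called in M2 → M0 against M2 kept (-7.00 ± 0.54 and -5.14 ± 0.36), where 23.6% of all genes were called and 13.0% were lower. Against M0 kept, M2 → M0 differed in 1 gene, Arg1 (2.18 ± 0.50, adjusted p = 0.016), where 0.373% of all genes were called and 0.253% were higher. That call was lost without replicate 2 (1.40, adjusted p = 1.0) or replicate 3 (2.33, adjusted p = 0.22), the libraries overlapped, and without replicate 1 there were 2 calls. M0 kept at 72 h differed from M0 at 0 h in 0 of the 7 genes by limma, where 13.7% of all genes were called. At an unadjusted p under 0.05 it differed in 1, and without replicate 1 the adjusted test called 2.

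The third question was what the opposing stimulus does. IL-4 given to M1 cells raised Arg1 and Slc7a2 above their levels in base medium, while no difference was called for Nos2 without the replicate block. Arg1 was at 412.5, 356.5 and 420.7 FPKM at 2 h of M1 → M2 and 805.0, 869.2 and 683.4 at 4 h, against 103.6, 109.6 and 110.9 in M1 → M0 at 4 h (2.84 ± 0.54, limma adjusted p = 3.2e-05). At 12 h it reached 1821 ± 127 FPKM, 5.19 ± 0.54 above M1 → M0. Slc7a2 was called from 2 h (1.53 ± 0.36, adjusted p = 0.0052) and reached 332 ± 56.0 FPKM at 12 h, against 6.94 ± 1.60 in M1 → M0. Arg2 was at 2.74 ± 0.889 FPKM at 2 h, against 0.589 ± 0.187 (1.22 ± 0.24, adjusted p = 0.00037), and was called until 6 h.

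Nos2 in M1 → M2 cells was at 384 ± 83.9 (4 h), 180 ± 36.3 (6 h), 30.7 ± 5.87 (12 h) and 5.32 ± 1.40 FPKM (24 h), beside 292, 124, 27.3 and 4.40 FPKM in M1 → M0, and was called at 0 of 7 hours by limma, also at an unadjusted p under 0.05 (difference at 24 h 0.21, adjusted p = 0.85). The replicate block in limma called Nos2 higher at 4 h (0.37, adjusted p = 0.037) and 6 h (0.52, adjusted p = 0.011). At 72 h the block called it lower (-0.36, adjusted p = 0.022). Of 49 pairs 14 were higher and 0 lower, where 8.11% of all pairs were called and 4.97% were higher. With the replicate block 22 were called, but the share over all pairs was not computed for that fit, so this count has no background. At 24 h 2 genes were called, Arg1 and Slc7a2, where 10.2% of all genes were called and 6.27% were higher, and the replicate block added Odc1 (0.26, adjusted p = 0.61 without and 0.032 with the block).

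IFN-γ with LPS given to M2 cells raised Nos2 from the M2 state. At 1 h of M2 → M1 it was at 0.15 ± 0.113 FPKM, and the libraries of 2 h held 42.6, 5.25 and 12.3 FPKM. By 6 h the mean was 1559 ± 81.5 FPKM, and the libraries of 12 h held 2529, 2764 and 2464. Without the replicate block no difference from base medium was called for Arg1 in the first 12 h. It was at 371.7, 659.3 and 583.8 FPKM at 6 h and 242.1, 295.2 and 254.7 at 12 h, against 546.7, 1450 and 1055 and 209.9, 524.9 and 647.5 in M2 → M0. Neither hour passed the test (-0.85, limma adjusted p = 0.16, and -0.66, adjusted p = 0.29). Arg1 was called lower at 6 h with the block (limma adjusted p = 0.00088). From 24 h the order was the reverse, with 811.9, 532.3 and 615.3 FPKM in M2 → M1 and 85.0, 167.9 and 268.3 in M2 → M0 (2.03 ± 0.54, adjusted p = 0.0006), and at 72 h the difference was 4.58 ± 0.54 (adjusted p = 2.3e-12). Arg1 in M2 → M1 cells was thus lowest at 12 h and higher again in every library at 24 h. Of 49 pairs 28 were higher and 0 lower than in M2 → M0, where 46.3% of all pairs were called and 26.0% were higher. At 24 h 5 genes were higher, where 64.5% of all genes were called and 37.4% were higher: Nos2, Arg1, Ass1, Slc7a2 and Gch1. The replicate block added Odc1 at 24 h (0.33, adjusted p = 0.2 without and 0.039 with the block).

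The fourth question was whether cells with a history respond as naive cells do. At a given hour the primed cells had been in culture 24 h longer than the naive cells and had been through the wash. Priming therefore cannot be told apart from culture time and the wash. In M2 → M1 against M1 cells Nos2 was lower in the first hours and not in the later ones. At 4 h it was at 810.4, 744.9, 686.2 and 783.3 FPKM in M2 → M1 and 1424, 1719 and 1803 in M1 (-1.12 ± 0.34, limma adjusted p = 0.0089), with no overlap, although the call was lost without replicate 2 (-1.08, adjusted p = 0.063) or replicate 3 (-1.0, adjusted p = 0.19). At 12 h the levels were 2586 ± 158 and 2649 ± 217 FPKM (-0.03, adjusted p = 0.97). At 24 h the order was the other way, with 1177, 1227 and 1243 FPKM in M2 → M1 and 741.3, 518.5 and 613.1 in M1 (0.98 ± 0.36, adjusted p = 0.046), a call lost without replicate 2 (0.84, adjusted p = 0.31) or replicate 3 (0.95, adjusted p = 0.39).

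Arg2 and Odc1 rose less in M2 → M1 than in M1 cells. At 2 h Arg2 was at 1.62 ± 0.210 FPKM, against 24.2 ± 13.9 (-3.10 ± 0.24, limma adjusted p = 1.5e-20), and Odc1 at 61.0 ± 17.9, against 134 ± 44.8 (-1.10 ± 0.23, adjusted p = 4.2e-05). The neutrophil markers summed to 10.2 to 103.0 FPKM in these M2 → M1 libraries and to 954.3 to 5437 in the M1 libraries, and their part was not tested. Slc7a2 was above the naive response, at 868.8, 851.3 and 782.4 FPKM at 6 h, the highest of its 48 condition means, against 487 ± 76.9 (0.78, adjusted p = 0.12), and at 184.5, 149.7 and 129.5 FPKM at 24 h, against 35.6, 23.3 and 31.1 (2.33 ± 0.36, adjusted p = 3.8e-07). Arg1, already high in M2 cells before the switch, was above the naive M1 level by 5.85 to 7.85 from 1 to 6 h and no longer passed the test at 12 h (1.25 ± 0.54, adjusted p = 0.082) and 24 h (0.76 ± 0.54, adjusted p = 0.35). Its difference at 12 h did pass with the replicate block (limma adjusted p = 0.0022).

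At 4 h all 7 genes differed between M2 → M1 and M1 cells, 2 higher and 5 lower, where 25.0% of all genes were called, 10.9% higher and 14% lower. Without replicate 2 the count was 2 and without replicate 3 it was 3. Arg1 (7.23 ± 0.50) and Slc7a2 (1.16 ± 0.34) were the higher genes, and Arg2 (-1.41 ± 0.23), Odc1 (-1.0 ± 0.21), Ass1 (-0.80 ± 0.30) and Gch1 (-0.60 ± 0.22) were lower beside Nos2. Slc7a2 was lost without replicate 2 or 3 (adjusted p = 0.14 and 0.11), Gch1 without replicate 2 or 3 (adjusted p = 0.23 and 0.24), Ass1 without replicate 2, 3 or 4 (adjusted p = 0.083, 0.3 and 0.071) and Odc1 without replicate 2 (-0.56, adjusted p = 0.19). At 24 h 3 genes were higher, where 18.9% of all genes were called and 11.5% were higher, and 1 without replicate 2 or replicate 3, when Nos2 and Ass1 (0.87 ± 0.32, adjusted p = 0.04) were lost. Over 42 pairs 11 were higher and 13 lower, where 25.7% of all pairs were called, 13.7% as higher and 12.1% as lower, and the count of 24 became 13 without replicate 2 or replicate 3.

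In M1 → M2 against M2 cells Nos2 was called higher at 6 of 6 hours: it was higher by 8.88 ± 0.36 at 1 h and still by 2.2 ± 0.36 at 24 h (5.32 against 0.377 FPKM, limma adjusted p = 2e-07). Arg1 was higher at 1 h (196 ± 26.3 against 19.8 ± 6.13 FPKM, 3.28 ± 0.54) and 2 h (397 ± 34.9 against 149 ± 55.1, 1.47 ± 0.54, adjusted p = 0.013), and from 4 h on its means were below those of naive M2 cells without passing the test. At 24 h it was at 1171, 1334 and 1114 FPKM in M1 → M2 and 2273, 2659 and 2985 in M2, which do not overlap (-1.12 ± 0.54, adjusted p = 0.068), and without replicate 1 the difference passed (-1.21, adjusted p = 0.035).

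Odc1 was lower in M1 → M2 than in M2 cells at 2, 4 and 6 h (-0.67, -0.81 and -0.67). Of 42 pairs 23 were higher and 3 lower, where 59.9% of all pairs were called, 34.5% as higher and 25.4% as lower, and the 26 calls became 15 without replicate 3. At 4 h 4 genes were higher and 1 lower, where 64.5% of all genes were called, 35.9% higher and 28.5% lower: Nos2 (8.38), Ass1 (3.08), Gch1 (0.86) and Arg2 (0.59) were higher and Odc1 (-0.81) lower. Without replicate 3 Nos2 and Ass1 alone remained of these 5 calls, and without replicate 2 Arg2 was lost (adjusted p = 0.095). At 24 h 2 genes were called, Nos2 and Slc7a2 (0.83 ± 0.36, adjusted p = 0.045), where 53.9% of all genes were called and 32.0% were higher. The call of Slc7a2 was lost without replicate 2 (adjusted p = 0.2) or replicate 3 (adjusted p = 0.14), and without replicate 1 there were 5 calls.

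**Figure D3:**
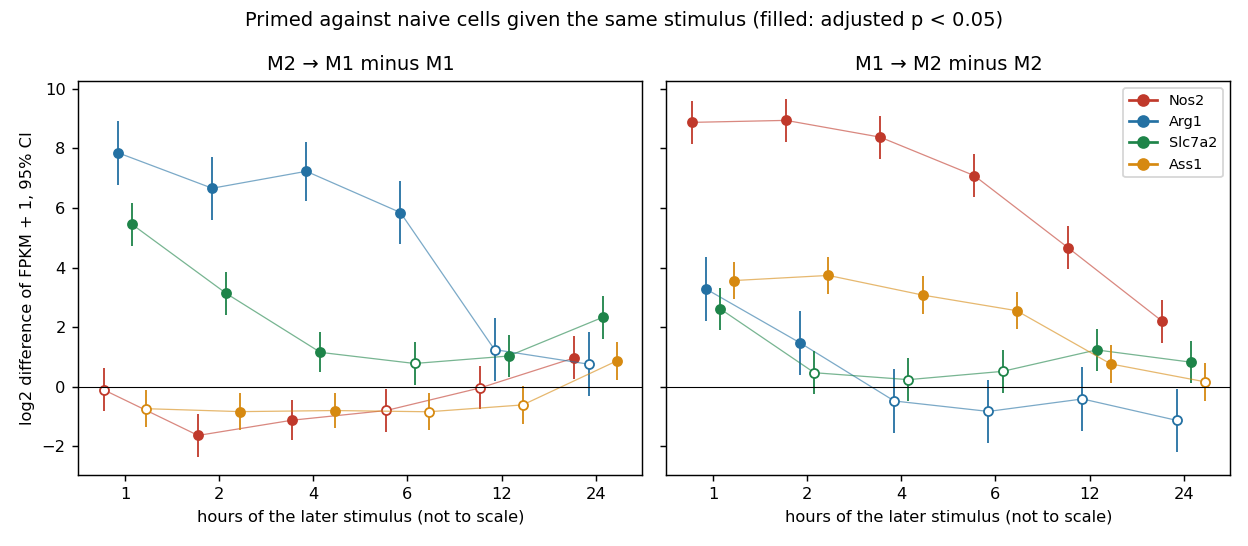
Difference between primed and naive cells given the same stimulus, on the log2(FPKM + 1) scale, against hours of that stimulus (not drawn to scale), for M2 → M1 minus M1 (left) and M1 → M2 minus M2 (right); bars are 95% confidence intervals from the fit over all libraries, and filled symbols passed the adjusted test. Arg1 started 7.85 above naive M1 cells and, without the replicate block, was no longer called from 12 h, Nos2 went from -1.63 at 2 h to 0.98 at 24 h, and in M1 → M2 cells Nos2 fell from 8.88 to 2.2.

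At 72 h the late states were compared with cells that had never changed stimulus. M2 → M1 cells held Arg1 at 194.8, 546.8 and 367.4 FPKM, against 38.2, 30.5 and 343.2 in M1 kept (2.18 ± 0.54, limma adjusted p = 0.0026). The libraries overlapped, and the call was lost with the replicate block (adjusted p = 0.13) and without replicate 2 (1.21, adjusted p = 0.54). Slc7a2 was at 42.7 ± 33.4 against 16.6 ± 9.67 FPKM (1.20 ± 0.36, adjusted p = 0.017, lost without replicate 2 or 3, adjusted p = 0.13 and 0.24). These 2 calls stand beside 12.0% of all genes called and 7.32% higher, and there were 4 without replicate 1, 0 without replicate 2 and 1 without replicate 3. Arg2, at 0.515 against 0.0915 FPKM (0.47, adjusted p = 0.22), was called with the block only (adjusted p = 0.048). M1 → M2 cells differed from M2 kept in 0 of 7 genes by limma, where 21.5% of all genes were called, in 1 at an unadjusted p under 0.05, and in 2 with the block or without replicate 1. With the block these were Nos2, at 1.47, 0.980 and 0.703 against 0.501, 0.184 and 0.0957 FPKM (0.70, adjusted p = 0.17 without and 0.014 with it), and Slc7a2 (-0.88, adjusted p = 0.071 without and 0.014 with it).

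The difference in response was also tested directly, as the effect of a stimulus on primed cells minus its effect on naive cells at 24 h, each against its own cells in base medium. The primed side was again 24 h older in culture and washed, so priming cannot be told apart from these. For IL-4 the effect on Arg1 was 8.47 in naive and 5.86 in M1-primed cells, a difference of -2.61 ± 0.76 (limma adjusted p = 0.02). For IFN-γ with LPS it was 5.69 in naive and 2.03 in M2-primed cells, a difference of -3.66 ± 0.76 (adjusted p = 0.00072). The base medium levels of Arg1 differed, at 7.26 FPKM in M0, 19.8 in M1 → M0 and 174 in M2 → M0. The first was lost without replicate 2 (-3.03, adjusted p = 0.14) or replicate 3 (-2.51, adjusted p = 0.23) and the second without replicate 3 (-3.15, adjusted p = 0.14), and without replicate 1 the second held 2 calls. Of the 7 genes Arg1 was the 1 called in each, where 6.32% and 7.33% of all genes were called and 3.35% and 2.85% were lower. For Nos2 the differences were -0.02 ± 0.51 and 0.70 ± 0.51.

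Over all 48 conditions the order of the levels was as follows. Nos2 was highest in M1 at 6 h (2706 ± 202 FPKM), M1 at 12 h (2649 ± 217) and M2 → M1 at 12 h (2586 ± 158), which lie within 1 SD of each other, followed by M1 at 4 h (1648 ± 199) and M2 → M1 at 6 h (1559 ± 81.5), which overlap, and then M2 → M1 at 24 h (1216 ± 34.4). It was lowest in M2 → M0 at 4 h (0.0452 ± 0.0346). Arg1 was highest in M2 kept at 24 h (2913 ± 281), M2 at 24 h (2639 ± 357), M2 → M1 at 1 h (2467 ± 156), M2 at 12 h (2441 ± 465) and M2 → M0 at 1 h (2277 ± 228), a run in which neighbours overlap, and lowest in M0 kept at 72 h (2.96 ± 3.07). Ass1 was highest in M1 at 12 h (82.7 ± 6.63) and Slc7a2 in M2 → M1 at 6 h (834 ± 45.7).

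Across the 48 condition means, which share replicate numbers and controls, Pearson's r of the log2 values was -0.06 between Nos2 and Arg1, 0.94 between Nos2 and Ass1, 0.82 between Nos2 and Gch1, 0.68 between Arg1 and Slc7a2 and 0.69 between Arg2 and Odc1. The genes whose means followed Nos2 most closely were Cmpk2 and Ifit1 (both 0.985), Olfr56, Mlkl and Rsad2 (each 0.982), of which Ifit1 and Rsad2 are interferon-induced antiviral genes and Mlkl the executor of necroptosis. Among those that followed Arg1 most closely were Mdh2, mitochondrial malate dehydrogenase (0.847), Ap2m1, an adaptor of endocytosis (0.82), Pdia4, a folding enzyme of the endoplasmic reticulum (0.797), and Lipn, a lipase family member (0.795). For Slc7a2 the closest gene was Rars, arginyl-tRNA synthetase (0.919), which is named after its value was seen. These are descriptions over conditions and carry no test.

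ATAC-seq asked how the chromatin near these genes changed in M1 cells and how the sites stood after 72 h without the stimulus. The control was M0 at 0 h, so a difference of M1 → M0 at 72 h from M0 cannot be told apart from the longer time in culture. The totals were 1730488 to 9354620 reads in sites, lowest in replicate 3 of M1 at 24 h. Values are counts normalized to the mean effective library size, sites were tested with edgeR's quasi-likelihood test with Benjamini-Hochberg adjustment over 137586 sites, and distances are from the annotated start to the site's centre in the direction of transcription.

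Of 14 tested Nos2 sites 12 were more open in M1 at 24 h than in M0 at 0 h and 0 less open, where 30.2% of all sites were called, 16.4% more open and 13.8% less open. The median difference was 2.84, beside -0.09 over all sites. The site at the start, chr11:78920438-78920937, was at 19.3, 12.9 and 20.1 normalized counts in M0, 96.2, 113 and 97.7 in M1 and 24.1, 28.3 and 29.8 in M1 → M0, so that the M1 libraries stood apart and the other groups lay close together. Its difference was 2.53 in M1 against M0 (edgeR adjusted p = 3.4e-15) and -1.94 in M1 → M0 against M1 (adjusted p = 2.7e-11), and 0.59 in M1 → M0 against M0 (adjusted p = 0.11).

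The intergenic site 44.6 kb upstream, chr11:78875956-78876502, which holds the first sequence shown above, kept more of the change. It was at 3.85, 7.75 and 3.35 normalized counts in M0, 84.4, 101 and 134 in M1 and 23.4, 18.6 and 18.9 in M1 → M0, with no overlap between the 3 groups. The difference was 4.46 in M1 (edgeR adjusted p = 2.9e-20), and M1 → M0 was still above M0 by 2.13 (adjusted p = 2.4e-05) and below M1 (-2.32, adjusted p = 4.5e-12).

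A site downstream of the gene and one inside it were not called against M0 after the wash. The site 40.9 kb downstream of the start, chr11:78961147-78962255, was at 10.3, 7.75 and 5.86 normalized counts in M0, 224, 178 and 119 in M1 and 7.54, 7.08 and 9.94 in M1 → M0 (4.43, edgeR adjusted p = 7.6e-27, and then -0.02 against M0, adjusted p = 0.98). In the reference 81.2% of its bases are marked as repeats, against a median of 12.2% over sites, and reads from near-identical copies can be placed there. The nearest start of a protein-coding gene is that of Lgals9, 23.2 kb away, so distance does not assign this site to Nos2. The intronic site 4.3 kb downstream of the start, chr11:78924816-78925440, was at 6.42, 10.3 and 10.0 in M0, 70.7, 75.0 and 72.4 in M1 and 13.6, 17.7 and 9.94 in M1 → M0 (3.07, adjusted p = 5e-13, and then 0.68 against M0, adjusted p = 0.22).

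At 72 h of M1 → M0, 9 Nos2 sites were less open than in M1 and none more open, where 21.5% of all sites were called, 11.6% less open and 9.93% more open. Against M0, 5 were more open and 1 less open, where 18.2% were called, 10.0% more open and 8.14% less open. Without replicate 2 the 6 calls were 3. The 5 sites, all but the first named after their values were seen, lie 44.6 kb upstream (2.13), 33.5 kb upstream (0.75, means 31.9, 125 and 56.8 in M0, M1 and M1 → M0), 31.5 kb upstream (1.38, means 3.47, 43.9 and 11.2), in a coding exon 14.6 kb downstream of the start (2.89, means 1.48, 17.8 and 13.3) and in an intron 29.7 kb downstream (1.43, means 10.1, 56.2 and 25.8). Among these are the 3 sites whose κB, ISRE and GAS letters are shown above. The 1 site that was less open lies in an intron of Lgals9 (-1.65, means 13.1, 5.67 and 4.25).

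**Figure D4:**
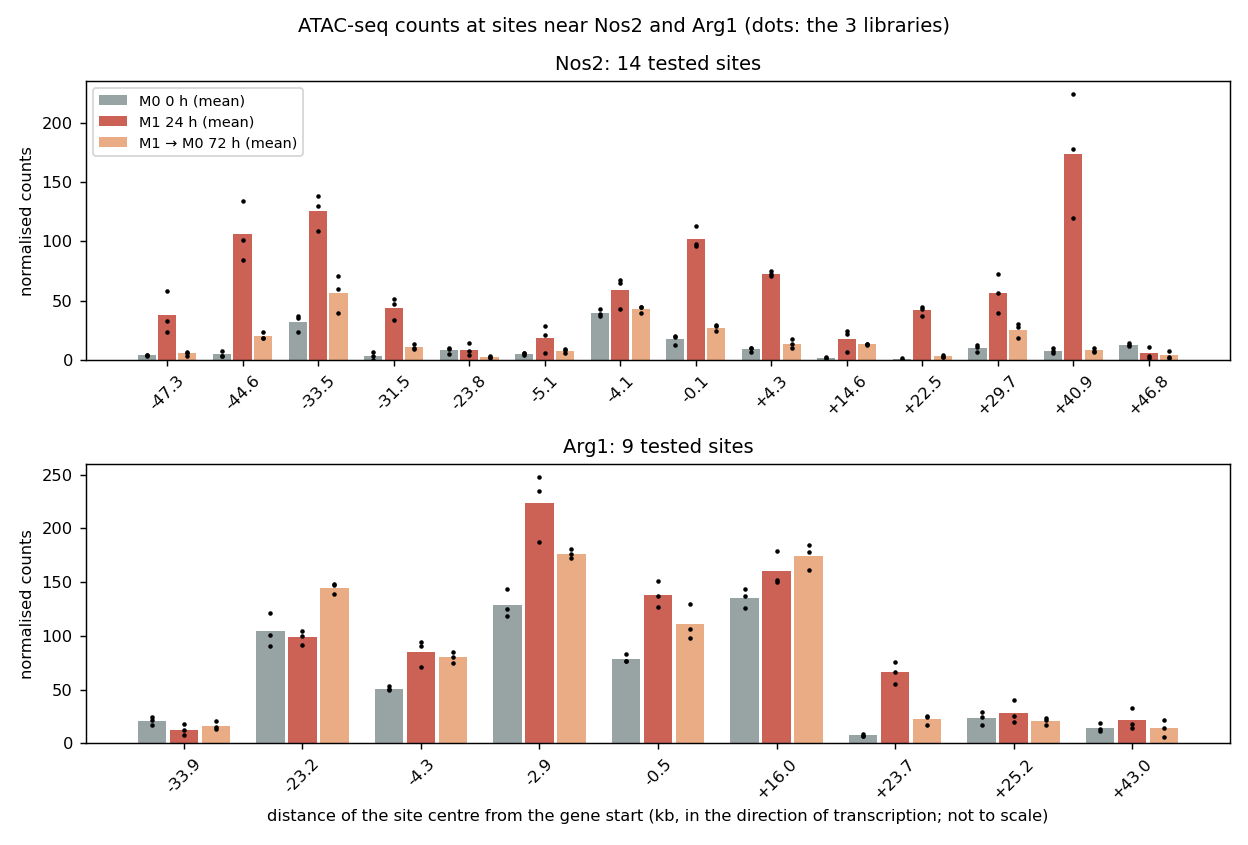
Normalized ATAC-seq counts at the 14 tested sites near Nos2 (top) and the 9 near Arg1 (bottom), ordered by distance from the gene's start in kb (not drawn to scale); bars are means of M0 at 0 h, M1 at 24 h and M1 → M0 at 72 h, and dots are the 3 libraries of each. The Nos2 sites 44.6 kb upstream and 40.9 kb downstream rose from 4.98 and 7.96 to 106 and 174, and then stood at 20.3 and 8.19, while the Arg1 sites near the start were open in M0 already.

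The Arg1 sites near the start were open in M0 cells already. The site at the start, chr10:24927452-24928540, was at 83.5, 76.2 and 76.2 normalized counts in M0, 151, 137 and 127 in M1 and 130, 106 and 98.4 in M1 → M0 (0.81, edgeR adjusted p = 1.3e-05, and then 0.50 against M0, adjusted p = 0.0063, lost without replicate 1, adjusted p = 0.19, and with DESeq2, adjusted p = 0.073). The site 2.9 kb upstream, chr10:24930015-24930784, with the STAT6 letters shown above, had means of 129, 223 and 176 (0.76, adjusted p = 8.7e-06, and then 0.47, adjusted p = 0.0059). The site 4.3 kb upstream, chr10:24931505-24931970, was at 49.4, 53.0 and 50.2 in M0, 70.7, 94.6 and 90.5 in M1 and 85.3, 74.3 and 80.5 in M1 → M0 (0.78, adjusted p = 0.00045, lost without replicate 2, adjusted p = 0.063, and then 0.66 against M0, adjusted p = 0.0019, lost without replicate 1, adjusted p = 0.097). In all of these the M1 → M0 means lay above the M0 means.

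The Arg1 site with the largest difference lies 23.7 kb downstream of the start in a coding exon of Med23, chr10:24903556-24903938, a gene of the Mediator complex. It was at 7.06, 9.04 and 6.70 normalized counts in M0, 66.8, 55.5 and 76.0 in M1 and 25.7, 16.8 and 24.9 in M1 → M0 (3.07, edgeR adjusted p = 3.6e-12, and then 1.59 against M0, adjusted p = 0.00064, lost without replicate 1, adjusted p = 0.061). The 3 groups did not overlap. Of the 9 tested sites 4 were more open and 0 less open in M1, with a median of 0.76 beside -0.09 over all sites, of which 16.4% were more open. In M1 → M0 6 were more open than in M0, beside 10.0% of all sites, but 0 were without replicate 1. Against M1, 1 was more open in M1 → M0, 23.2 kb upstream (0.59, means 104, 98.8 and 145), and 1 less open, the site in Med23, beside 9.93% and 11.6% of all sites.

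Of the 51 tested sites of the other 5 genes 18 (35.3%) were called in M1 against M0, beside 30.2% of all sites, 19 (37.3%) in M1 → M0 against M0, beside 18.2%, and 12 (23.5%) in M1 → M0 against M1, beside 21.5%. Without replicate 1 these counts were 11, 8 and 5. An intronic Slc7a2 site 27.9 kb downstream of the start, named after its values were seen, behaved as the Nos2 sites did, with means of 8.68, 111 and 26.0 (3.51 in M1, edgeR adjusted p = 1.6e-18, and 1.45 left in M1 → M0, adjusted p = 0.00045). The other start within the Slc7a2 window is that of Adam39, and the Arg2 window holds the starts of Pigh and Vti1b, so sites there cannot be assigned to 1 gene by distance alone.

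Sites near Ass1 moved the other way after the wash. None of its 10 tested sites was more open in M1 → M0 than in M0 and 5 were less open, beside 10.0% and 8.14% of all sites. The site over its start, chr2:31469835-31470630, was at 50.1, 41.3 and 41.0 normalized counts in M0, 55.0, 63.6 and 61.5 in M1 and 22.6, 19.5 and 10.9 in M1 → M0. Every M1 → M0 library was below every M0 library (-1.30, edgeR adjusted p = 6.3e-05), whereas the rise in M1 did not pass the test (0.44, adjusted p = 0.14). The RNA of Ass1 in bulk libraries of M1 → M0 at 72 h, 1.9 ± 0.152 FPKM, stood beside 1.07 ± 0.154 in M0 kept (0.49, limma adjusted p = 0.29). The promoter under this site is shown because the site lay below its M0 level after the wash, where the sites at the starts of Nos2 and Arg1 did not. It is RefSeq's 250 bases before the gene's start, plus strand, GRCm38.p6, with κB letters in capitals. It holds 6 overlapping or separate κB matches on either strand, and none of the other motifs, where 45.8% of 32817 promoters of this length hold at least 1.
Ass1 promoter, chr2:31470020-31470269: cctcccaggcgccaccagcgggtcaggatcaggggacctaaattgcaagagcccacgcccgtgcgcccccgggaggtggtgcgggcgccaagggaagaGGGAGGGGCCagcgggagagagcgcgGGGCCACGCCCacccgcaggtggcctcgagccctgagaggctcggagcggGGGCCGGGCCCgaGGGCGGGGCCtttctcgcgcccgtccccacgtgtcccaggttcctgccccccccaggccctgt

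Single cells showed whether the Arg1 of M1 cells lay in the cells that held Nos2. Each condition had 1 library, so there is no test, and intervals are exact 95% intervals that cover counting error only. Median depth was 1025 to 2529 UMIs per barcode. In M0 at 0 h 1 of 5985 barcodes had a Nos2 UMI, and in both M2 libraries and in M0 at 6 and 24 h none had. A count of 0, taken as up to 3 barcodes, allows shares of 0.103% to 0.123% of barcodes with a UMI in these libraries and sets no limit on cells that express the gene. In M1 at 6 h 79.2% of 3248 barcodes had one (77.7% to 80.6%, 1087 UMIs per 1000000) and in M1 at 24 h 57.7% of 2842 (55.9% to 59.6%, 566 per 1000000). Thinned to 500 UMIs per barcode, with shallower barcodes left out, these shares were 39.5% and 24.6%.

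Arg1 UMIs were in 0.518%, 1.27% and 0.33% of barcodes in M0 at 0, 6 and 24 h and in 0.647% in M1 at 6 h, libraries with little Arg1 RNA in all. The share that free RNA gives in M1 at 24 h, a library with Arg1-rich cells of its own, was not measured. In M1 at 24 h they were in 21.1% (19.6% to 22.6%, 343 UMIs per 1000000) and in M2 in 88.6% at 6 h and 92.8% at 24 h (2724 and 3299 per 1000000), or 10.9%, 62.7% and 68.2% after thinning. The Arg1 of M1 cells was concentrated: the tenth of barcodes with most of it held 84.3% of its UMIs in M1 at 24 h and 33.2% in M2 at 24 h, and single M1 barcodes held up to 44 UMIs.

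In M1 at 24 h 380 of 2842 barcodes, 13.4% (12.1% to 14.7%), held UMIs of both genes, 1261 held Nos2 alone, 219 held Arg1 alone and 982 held neither. The product of the separate shares is 12.2%, so the observed share was 1.10 times what unrelated detection gives, and with barcodes split into 4 equal classes of depth the products add to 350.6 barcodes. After thinning to 500 UMIs per barcode 97 barcodes, 3.41%, held both, against a product of 2.68%. Of the 66 barcodes with at least 10 Arg1 UMIs 47 also held Nos2, 71.2% (58.7% to 81.7%). Their median depth was 3151 UMIs against 2056 in the library, and in the deepest of the 4 classes, at a median of 4291 UMIs, 68.2% of all barcodes held Nos2, which lies inside that interval.

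**Figure D5:**
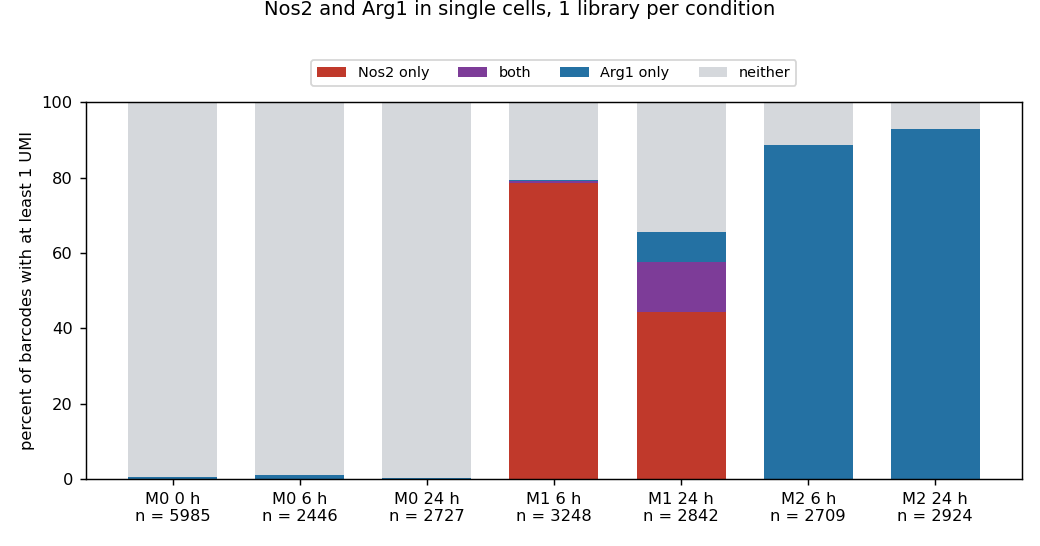
Percent of cell barcodes in each single-cell library with at least 1 UMI of Nos2 only, of both genes, of Arg1 only or of neither, with the number of barcodes under each bar and 1 library per condition. Barcodes with both genes were 0.554% in M1 at 6 h and 13.4% in M1 at 24 h, and none were seen in the M0 and M2 libraries.

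Within the M1 library of 24 h Nos2 was at 664 UMIs per 1000000 (624 to 706) in barcodes with Arg1, whose median depth was 2200 UMIs, and 538 (519 to 558) in barcodes without it, at 2034. Arg1 was at 371 per 1000000 (354 to 389) in barcodes with Nos2 and 295 (274 to 316) in those without, at median depths of 2266 and 1756. The depths differ in the same direction as the levels. In M1 at 6 h 18 barcodes held both genes, 0.554% (0.329% to 0.874%), with a product of 0.512%, and in M2 none of 2709 and 2924 barcodes did.

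The other genes were also counted in each library. Slc7a2 was at 306 UMIs per 1000000 in M1 at 6 h and 16.7 at 24 h, and at 191 and 113 in M2. Gch1 was at 311 and 169 in M1, and at 26.0 to 49.5 in the other libraries. Ass1 was at 45.2 and 52.0 in M1 and 2.44 to 12.1 elsewhere. Odc1 was at 18.1 in M1 at 6 h, below the 19.7 and 31.2 of M0 at 0 and 6 h and the 26.5 of M2 at 6 h, whereas in bulk it was called higher in M1 than in M0 at 0 h at that hour (1.11 ± 0.23). Arg2 was at under 1 UMI per 1000000 in every library. Markers of macrophages were found in each library, those of liver cells, where Arg1 is abundant, and of mast cells were at 0 UMIs, and marked neutrophils were too few to serve as cells that lack these genes. Pairs of libraries shared 6 to 25 barcodes, and doublets were not removed.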

How the data were processed

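The authors aligned bulk RNA-seq reads to mm10 and deposited a matrix of log10 FPKM values per gene and library (TopHat2 2.0.14 and Cuffnorm 2.2.2 per the submitters' processing notes). All genes in it reached 10 FPKM in at least 1 library. For ATAC-seq the authors deposited read counts per site (MACS2 2.1.0, SAMtools 1.9 and bedtools 2.28.0 are named in the notes), and for single cells the authors deposited UMI counts from Cell Ranger, whose version is not given in the sources used here. Values were turned back to FPKM, which sum to 354027 to 710082 per library, so read depth is unknown for them.

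Groups were taken from the labels. Bulk differences were tested with limma 3.58.1 (R 4.3.3) on log2(FPKM + 1), with 1 mean per condition over all 145 libraries and a trended prior. ATAC-seq counts were tested with edgeR 4.0.16's quasi-likelihood test, with TMM scaling, on 137586 sites with more than 10 counts in at least 1 library. DESeq2 1.42.0 was an alternative. Site names were read as BED intervals, so 1 was added to each start. Barcodes were used as deposited and doublets were not removed. Python 3.11.15, numpy 2.4.6, pandas 2.3.3, scipy 1.17.1 and matplotlib 3.10.9 were used for the rest. Both fits were tested on simulated data. Intervals are 95%, floors are 3 counts, and both cover counting error only.

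The genes and lists were chosen with earlier results of these data known. All 7 genes are named in every comparison. Up to 4 genes of the pathway list are named per main comparison, by the largest difference among those called. The 5 genes most correlated with Nos2 and with Arg1 are named, leaving out Gm and Rik names and 1 gene that is not reported here. Sites named are the one nearest each start of Nos2 and Arg1 and the 3 with the largest difference in M1 among those whose mean reached 50 normalized counts or more in any group. Same-numbered libraries were checked for pairing by the correlation of their deviations from the condition means. In 11 of 20 bulk comparisons every pair was over 0.1 (0.105 to 0.774). The main test had no term for the replicate number in any comparison, and for these 11 a block value is given where it changes a call. In bulk the block fit used the libraries of the compared conditions alone, so the term and the smaller fit are not separated. Pairing was not checked at the other hours of the courses. The block changed further calls there, and some of these are given. ATAC-seq libraries were not paired. Alternatives were another pseudocount, filters, the compared conditions alone, no trend, median centring, the replicate block, each replicate left out in every condition at once, DESeq2, other site windows and folds, and other UMI rules.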

Additional observations from a re-analysis of the deposited data

Results flagged for a closer look

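Of the 7 genes, Arg1 was the 1 whose response to a stimulus at 24 h differed between primed and naive cells by the test of the difference itself. Primed cells were also 24 h older in culture and washed, so priming cannot be told apart from these. IL-4 raised it by 8.47 on the log2 scale in naive cells (7.26 to 2639 FPKM) and by 5.86 in M1-primed cells (19.8 to 1206 FPKM), a difference of -2.61 (limma adjusted p = 0.02). IFN-γ with LPS raised it by 5.69 in naive cells (7.26 to 390 FPKM) and by 2.03 in M2-primed cells (174 to 653 FPKM), a difference of -3.66 (adjusted p = 0.00072). Both differences had the same sign without each replicate, and the calls were lost without replicate 3, the first also without replicate 2.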

How the results depend on the processing

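Of 1255 recomputed values of 135 results, 1108 kept their direction and side of the threshold or stayed within 1.5 times the count, 66 lost a call, 7 gained one, 71 counts or shares moved and 3 changed sign. Single bulk values entered this tally if the main test had called them, with some uncalled ones from the text added. Few could therefore gain a call. Counts that moved with a pseudocount of 0.1 were M0 kept against M0 at 0 h (0 to 2), M2 → M1 against M1 at 4 h (7 to 4) and 24 h (3 to 1), M1 → M2 against M2 at 24 h (2 to 1) and against M2 kept at 72 h (0 to 1). With the compared conditions only, M2 → M0 at 6 h went from 1 to 2, M1 → M0 at 72 h against M0 kept from 2 to 4, M1 → M2 against M2 at 24 h from 2 to 5, and at 72 h M2 → M1 against M1 kept from 2 to 0 and M1 → M2 against M2 kept from 0 to 2. With median-centred libraries M2 → M0 at 6 h went from 1 to 2, M1 → M0 at 72 h against M0 kept from 2 to 1 and M2 → M1 against M1 at 24 h from 3 to 1. The cause was not tested.

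With the replicate block, counts moved for M2 → M0 at 6 h (1 to 2), M2 → M0 at 72 h against M0 kept (1 to 0), M1 → M2 against M2 at 24 h (2 to 5), M1 → M2 against M2 kept (0 to 2) and the course of M1 → M2 against M1 → M0 (14 to 22). The block fits also used the compared conditions only, and shares over all genes were not computed for them. Where the numbers did not pair the libraries, Arg1 was called at 6 h of M2 → M0 (adjusted p = 0.0049) and lost at 72 h against M0 kept (adjusted p = 0.17).

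Leaving out each replicate gave ranges of 0 to 2 calls for M0 kept against M0 at 0 h, 0 to 1 for M2 → M0 at 6 h, 0 to 3 and 0 to 2 for M1 → M0 and M2 → M0 at 72 h against M0 kept, 2 to 7 and 1 to 4 for M2 → M1 against M1 at 4 and 24 h, 2 to 5 and 1 to 5 for M1 → M2 against M2 at 4 and 24 h, 0 to 4 for M2 → M1 against M1 kept, 0 to 2 for M1 → M2 against M2 kept, and 0 to 1 and 0 to 2 for the differences in response to IL-4 and to IFN-γ with LPS. For the courses the ranges were 6 to 11 (M2 → M0), 13 to 30 (M2 → M1 against M1) and 15 to 32 (M1 → M2 against M2). For sites in M1 → M0 against M0 they were 3 to 5 (Nos2), 0 to 5 (Arg1) and 8 to 17 (other genes), and for the other genes 11 to 14 in M1 against M0 and 5 to 9 in M1 → M0 against M1.

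For sites in M1 against M0, a window of 20 kb left 5 of 12 at Nos2 and 7 of 18 at the other genes, a 2-fold minimum left 1 of 4 at Arg1 and 7 at the others, and DESeq2 called 10 at the others. In M1 → M0 against M0, 20 kb left 1 of 6 at Nos2 and 10 of 19 at the others, 2-fold left 1 of 6 at Arg1, and DESeq2 called 2 at Arg1 and 12 at the others. In M1 → M0 against M1, 20 kb left 2 of 9 at Nos2, 0 of 2 at Arg1 and 6 of 12 at the others, 2-fold left 1 at Arg1 and 6 at the others, and DESeq2 called 7 at the others. A narrower window holds fewer sites. The sign changes were at values near 0: the Nos2 site 40.9 kb downstream in M1 → M0 against M0 (-0.02, range -0.36 to 0.33, 0.05 without replicate 2) and the Arg1 site 4.3 kb upstream in M1 → M0 against M1 (-0.12, range -0.21 to 0.091).

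Barcodes with both genes went from 0.554% to 0.123% in M1 at 6 h and from 13.4% to 3.41% at 24 h after thinning to 500 UMIs, and to 0.185% and 5.07% with at least 2 UMIs of each gene. Depth limits these shares, and 1 library per condition leaves no replicate check.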
